A study of Pan paniscus with 11 samples.

Results

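Intermediate filament genes were followed in fibroblast cell lines of the bonobo (Pan paniscus). The genes were VIM, DES, KRT7, KRT8, KRT18, KRT19, KRT10, KRT1 and KRT16, and every probe set with 1 of these symbols in the probe annotation was taken. This gave 11 probe sets of 9 genes among 12558 probe sets that were not controls. KRT7 and KRT16 had 2 probe sets each, and the other genes had 1. No measured value decides whether a probe set belongs, only its symbol.

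Each culture was hybridised to 1 Affymetrix array of human design, 11 arrays in all. The groups were 1 culture of male line 1 taken at 50% confluence, 5 male lines and 5 female lines, the lines of both sexes being grown and harvested under the standard conditions. The donors of male lines 1 to 5 were 4, 2, 12, 17 and 19 years old, those of female lines 1 to 5 were 9, 2, 4, 20 and 20 years old. Every line came from a normal animal and was cultured once per state, so spread between lines holds both animal and culture, and passage number and the density of the standard cultures are not given in the sources used here. Values are intensities on a linear scale with low readings raised to a floor of 100, so a probe set at 100 has only an upper bound. In such bulk samples, fewer cells of a type and less RNA per cell cannot be told apart.

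Intermediate filaments are rope-like cytoplasmic fibres that give cells mechanical strength. Vimentin is the filament of mesenchymal cells such as fibroblasts, and desmin takes its place in muscle. Keratins are the filaments of epithelia and are built from obligate pairs of a type I and a type II chain: KRT8 (type II) pairs with KRT18 (type I) in simple epithelia, where KRT7 (type II) and KRT19 (type I) are also found, KRT1 (type II) pairs with KRT10 (type I) in the upper epidermis, and KRT16 (type I) is a chain of stressed and wounded skin.

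Array quality bears on several values given later. The share of probe sets above the floor ran from 52.1% in female line 1 to 60.9% in male line 4. The ratio of 3' to 5' control signal for ACTB is a measure of RNA integrity. It was highest in male line 4, at 2.27, and 0.853 to 1.44 among the remaining 9 lines. At 50% confluence it was 0.669, the lowest of all arrays, against 1.42 in the standard culture of male line 1. The 18S rRNA controls gave between 1508 and 2611 at 50% confluence, against at most 313 in any standard line. As a check of the label, all 13 fibroblast markers with a probe set exceeded the floor in all 11 cultures.

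Of the 11 filament probe sets, 5 were above the floor in all 11 arrays, against 36.2% of all probe sets, and 2 were at the floor in all 11, against 17.1%. The 5 were VIM, KRT8, KRT10, 1 of the KRT7 probe sets and 1 of the KRT16 probe sets. KRT1 was above the floor in 10 arrays. These 6 probe sets passed the filter for testing, which asked for a reading above the floor in at least 5 arrays. The other 5 did not pass it.

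VIM, the mesenchymal filament gene, read 34296, 22125, 22998, 34203 and 41314 in male lines 1 to 5. The female lines 1 to 5 gave 19809, 27164, 34125, 24801 and 34672. Every line was far above the floor, the highest line was 2.09 times the lowest, and the sexes overlapped over most of the range. The mean over the 10 lines was 29551 ± 7078 (SD, n = 10). DES, the muscle filament gene of the same type III class, was at the floor in all 11 cultures.

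The flat DES reading held in lines where some smooth muscle genes were bright. MYH11, the smooth muscle myosin gene, read 6163 in female line 1 by its brightest probe set and 100 to 1567 in the other lines. The muscle actin gene ACTA2 spanned 915 to 21614 and TAGLN, an actin-binding gene of smooth muscle, spanned 7213 to 32430 over the 10 lines. SMTN (1350 to 3750) and CALD1 (638 to 2819) were also above the floor in all 11 arrays. Other genes of the smooth muscle list were at the floor in part of the arrays. LMOD1 was above it in 10 arrays, CNN1 in 8, MYLK in 5 and ACTG2 in 4 (190 at most over the lines). Of the genes of the skeletal muscle programme, MYOD1 was above the floor in 1 of 11 arrays (141 at most) and MYOG in 9 (405 at most). The striated muscle genes ACTC1 (174 to 3974 over the lines) and TNNT1 (763 to 2612) were above the floor in all 11 arrays. MYF5 and CHRNA1 were at it throughout. ACTA1, MYF6, CKM, MYH3, TNNC1 and TNNI1 left it in some arrays, at 348 or less over the lines.

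KRT7, a type II keratin of simple epithelia, was the most uneven member. Its first probe set read 1618, 551, 1501, 1788 and 720 in male lines 1 to 5, and 1201, 3228, 2546, 1280 and 1648 in female lines 1 to 5. Female lines 2 and 3 were highest and male lines 2 and 5 lowest, a 5.86-fold range, while the remaining 6 lines of both sexes lay together between 1201 and 1788. The second KRT7 probe set gave a different picture. It was above the floor in 4 lines alone, at 134 and 230 in male lines 2 and 3 and 223 and 174 in female lines 1 and 5, which were not the lines highest by the first. Over the 10 lines the probe sets had a Pearson r of -0.18 (permutation p = 0.627) and a Spearman rho of -0.36 (permutation p = 0.309). With the second at the floor in most lines, these coefficients say little on how well the probe sets match. The KRT7 values that follow are those of the first, which had the higher mean log2 value and alone passed the filter. They hold for that probe set only.

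KRT8, the type II partner of KRT18, varied least. Male lines 1 to 5 read 1091, 860, 773, 1007 and 1012, and female lines 1 to 5 read 852, 624, 645, 868 and 925. All 10 lines lay within a 1.75-fold range, with female lines 2 and 3, the lines of highest KRT7, at the bottom. KRT18 was at the floor in 10 of 11 arrays and read 108 in female line 5. KRT19, the other type I chain of simple epithelia, was at the floor in all 11. For the type II chains, KRT8 and the first KRT7 probe set were thus above the floor in every culture. The second KRT7 probe set, above it in 4 lines alone, was not, nor were the probe sets of the type I chains KRT18 and KRT19. Since the probes follow human sequence, the bound holds for these probe sets only. Genes for KRT18 and KRT8 lie next to each other among protein-coding genes in the bonobo gene table used for names.

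The epidermal pair showed the other arrangement, with the type I chain clearly above the floor. KRT10 read 389, 321, 387, 655 and 703 in male lines 1 to 5 and 287, 494, 378, 589 and 702 in female lines 1 to 5. Its type II partner KRT1 read 162, 176, 182, 268 and 131 in male lines 1 to 5. In female lines 1 to 5 KRT1 gave 103, 168, 301, 216 and 148. The lines with most KRT10 were male lines 4 and 5 and female line 5, while KRT1 was highest in female line 3 and close to the floor in female line 1.

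KRT16 was low by its first probe set, with 172, 289, 121, 283 and 165 in male lines 1 to 5 and 133, 160, 199, 127 and 165 in female lines 1 to 5. Male lines 2 and 4 stood highest, and the other 8 lines lay between 121 and 199. Its second probe set left the floor in a single culture, male line 2, at 188. KRT16 has close sequence relatives among the type I keratins, so these low readings are uncertain as to gene.

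**Figure D1:**
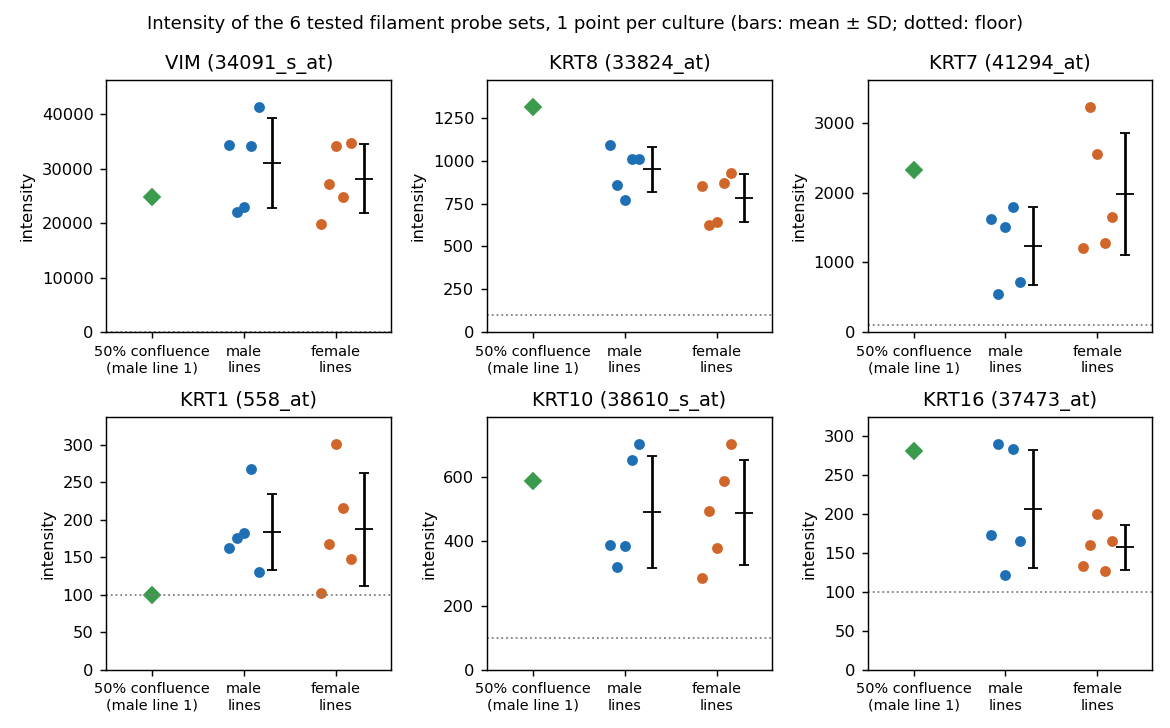
Intensity (linear, axis from 0) of the 6 tested filament probe sets, with a diamond for the 50% confluence culture of male line 1, circles for the 5 male and 5 female standard lines, black bars for mean ± SD of each sex and a dotted line at the floor of 100. The sexes overlap in every panel, and the 50% confluence culture lies above all standard lines for KRT8 (1313) and at the floor for KRT1.

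The first comparison asked whether filament genes differed between male and female lines. No member passed. Sex and age were fitted together with limma over 7333 probe sets, and of the 6 filament probe sets 0 had an adjusted p under 0.05, against 0.0273% of all tested, and 0 had an unadjusted p under 0.05, against 2.33%. The male and female ranges overlapped for all 6, where 0.286% of tested probe sets had ranges that did not.

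KRT7 had the largest sex estimate, 1236 ± 560 in males and 1981 ± 878 in females (SD, n = 5 each). The log2 difference, male minus female, was -0.72 ± 0.36 (SE), with an unadjusted limma p of 0.0637 and adjusted p = 0.9999. The estimate moved with single lines in both directions. It was -0.36 without male line 2 and -0.52 without female line 2, and -0.95 without male line 4 (limma, unadjusted p = 0.0196) and -0.89 without female line 1 (limma, unadjusted p = 0.0298). In these 4 fits the limma adjusted p stayed above 0.05. With array weights the limma estimate was -0.96 (limma, unadjusted p = 0.0123 and adjusted p = 0.999). KRT8 went the other way, with 949 ± 129 in males and 783 ± 138 in females, a log2 difference of 0.29 ± 0.20 (limma, adjusted p = 0.9999). KRT16 had 206 ± 75.6 in males and 157 ± 28.8 in females, a log2 difference of 0.33 ± 0.29 (limma, adjusted p = 0.9999). For VIM the estimate was 0.13 ± 0.26, for KRT1 0.03 ± 0.32 and for KRT10 0.01 ± 0.26. KRT10 averaged 491 ± 175 in males and 490.0 ± 165 in females (SD, n = 5 each). Mitosis genes, given here because growth rate can differ between cultures, had positive sex estimates in 18 of 19 tested, where 50.6% of all probe sets did, and a median estimate of 0.84, where that of all was 0.0032. Of these 19, 5 had an unadjusted limma p under 0.05 and 0 an adjusted one. The 20 mitosis genes on the array, counted at the floor where they were at it, had summed intensities of 6193 to 20665 in males. In females the sums were 3341 to 19347. The part of mitosis genes in the member values was not tested.

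The second comparison was with donor age. No member passed it either, with 0 of 6 at an adjusted p under 0.05 (limma), against 0.0% of all tested. KRT10 was the 1 filament gene with an unadjusted p under 0.05, against 3.42% of tested probe sets. In order of age it read 321 and 494 at 2 years, 389 and 378 at 4 years, 287 at 9 years, 387 at 12 years, 655 at 17 years, 703 at 19 years, and 589 and 702 at 20 years. The 4 lines from animals of 17 years or more were all above the 6 younger ones. The same was true of 0.368% of tested probe sets, a grouping of ages chosen after the values had been seen.

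The KRT10 slope was 0.48 ± 0.18 (SE) log2 per 10 years, with an unadjusted limma p of 0.0187 and adjusted p = 0.999. It ranked 84th of 7333 by p. Leaving out each line in turn kept the slope between 0.43 and 0.61, and the unadjusted p passed 0.05 without female line 5 (0.0575) and without male line 5 (0.0525). Without male line 4, the 17-year line with the highest ACTB ratio, the slope was 0.45. Over the 10 lines, KRT10 had a Pearson r of 0.53 with the ACTB ratio (permutation p = 0.0909, adjusted p = 0.307) and a Spearman rho of 0.62 (permutation p = 0.0590, adjusted p = 0.236), and r was 0.35 without the 2 lines farthest from the median ratio. The part of RNA integrity in the age slope was not tested.

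The other age slopes were smaller than KRT10's. VIM had 0.15 ± 0.18 (SE) log2 per 10 years and KRT8 0.17 ± 0.14, while KRT7 had -0.20 ± 0.25, KRT16 -0.14 ± 0.20 and KRT1 -0.03 ± 0.22. Their limma adjusted p was 0.999 in each case. Single lines moved the KRT7 slope, to -0.51 without male line 2 (limma, unadjusted p = 0.0298, adjusted p = 0.9997) and to -0.03 without female line 2. KRT1, the partner of KRT10, read 176 and 168 at 2 years and 216 and 148 at 20 years, with the highest line at 4 years.

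**Figure D2:**
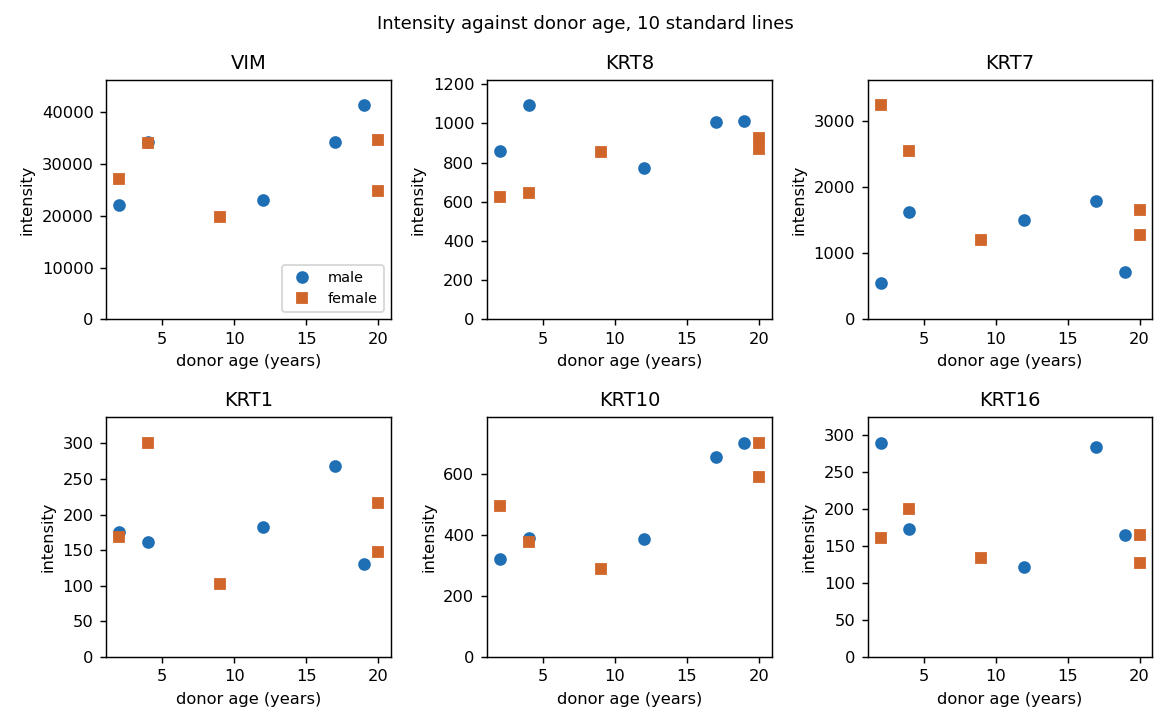
Intensity (linear, axis from 0) against donor age in years for the 6 tested filament probe sets, with circles for the 5 male and squares for the 5 female standard lines. KRT10 lies between 589 and 703 in the 4 lines of 17 years or more and between 287 and 494 in the 6 younger lines, whereas the other 5 genes show no such separation.

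The age slope was also compared between the sexes. Of the 6 probe sets, 0 passed at an adjusted p under 0.05 (limma), against 0.0136% of all tested, and 0 had an unadjusted p under 0.05, against 4.84%. KRT7 had the largest estimate, 0.73 ± 0.48 (SE) log2 per 10 years for the male slope minus the female slope (limma, adjusted p = 0.973). Male KRT7 read 551 at 2 years and 720 at 19 years with higher values between, and female KRT7 read 3228 at 2 years and 1648 and 1280 at 20 years. The estimate was 0.05 without male line 2 and 1.30 without male line 5, and 1.05 with array weights (limma, unadjusted p = 0.0340, adjusted p = 0.691). The other 5 estimates lay between -0.24 (KRT8) and 0.29 (VIM).

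Harvest state was described in male line 1, by the culture at 50% confluence and the standard culture, with 1 array each and so no test. Of the 5 filament probe sets above the floor in both cultures, 0 differed by over 2-fold, against 9.63% of the 6147 probe sets above it in both. KRT16 read 280 at 50% confluence and 172 in the standard culture, 1.63 times as much. KRT10 read 589 and 389 in the same order, 1.51 times as much, and KRT7 read 2323 and 1618, 1.44 times. For each of these 3, between 15 and 28 of the 45 pairs of standard lines were farther apart than both cultures of male line 1.

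KRT8 read 1313 at 50% confluence and 1091 in the standard culture, a ratio of 1.20. That placed the 50% confluence culture above all 10 standard lines, as it was for 10.8% of probe sets above the floor in both cultures. Male line 1 was also the highest of the standard lines. KRT1 was at the floor at 50% confluence and read 162 in the standard culture, at least 1.62-fold lower, and below all standard lines. KRT18, DES, KRT19 and the weaker probe sets of KRT7 and KRT16 were at the floor in both cultures.

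VIM read 24727 at 50% confluence and 34296 in the standard culture, a log2 difference of -0.47. With quantile normalization it was -0.02, with median centring -0.49, and with a floor of 200 or no floor -0.47. Quantile normalization gives each rank the same value on every array, which leaves little room for differences among the brightest probe sets. FTL, GAPDH and EEF1A1, the genes whose profile was most like that of VIM, were also lower at 50% confluence, by log2 differences of -0.56, -0.73 and -0.81 as deposited and -0.17, -0.46 and -0.42 with quantile normalization. KRT7, KRT8, KRT10 and KRT16 kept differences of the deposited sign with quantile normalization, median centring, a floor of 200 and no floor. KRT1 kept it except with a floor of 200, under which both its readings lie.

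**Figure D3:**
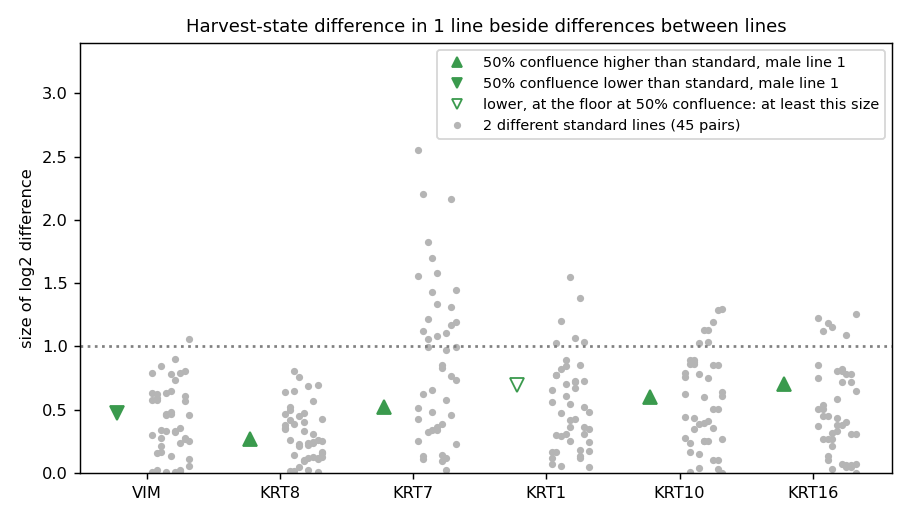
Size of the log2 difference between the 50% confluence and standard cultures of male line 1 (green triangles, pointing up where the 50% confluence culture was higher and down where it was lower) beside the same measure for 45 pairs of different standard lines (grey points), per gene. The dotted line marks a 2-fold difference, and the 5 filled triangles lie under it and within the range of the grey points. The open triangle, KRT1, is a lower bound (1.62-fold), since KRT1 was at the floor at 50% confluence.

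The members differed widely in how far lines were apart. On the log2 scale the SD between the 10 lines was 0.76 for KRT7, 0.48 for KRT10, 0.46 for KRT1, 0.44 for KRT16, 0.35 for VIM and 0.27 for KRT8. The median over all 7333 tested probe sets was 0.43. KRT7 was more variable than 92.9% of them and KRT8 more variable than 12.1%, and without male line 2 the SD of KRT7 was lowest, at 0.62.

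**Figure D4:**
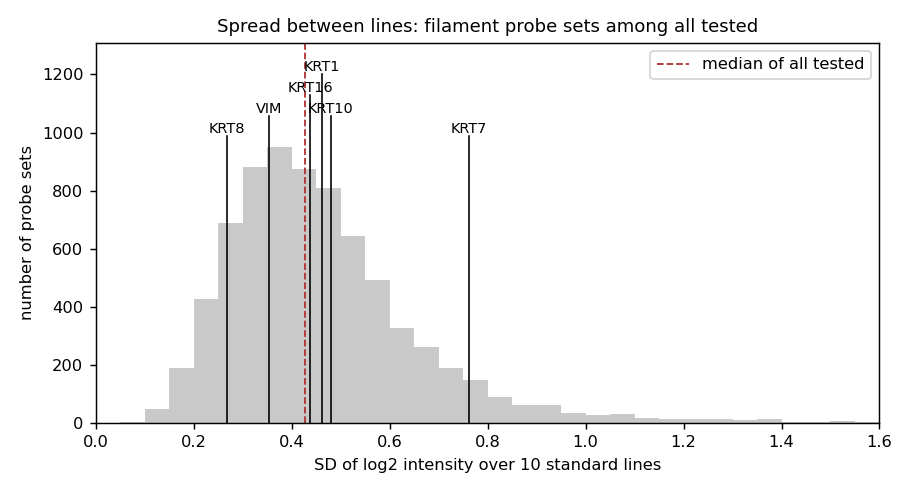
Histogram of the SD of log2 intensity over the 10 standard lines for all 7333 tested probe sets (grey bars), with a black line for each filament probe set and a dashed line at the median, 0.43. KRT8 (0.27) and VIM (0.35) lie below the median, KRT16, KRT1 and KRT10 close to it, and KRT7 (0.76) far into the upper tail.

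Members were then compared with each other over the 10 lines. Of 15 pairs, 12 had a positive Pearson r and 3 a negative one, and 0 passed after Benjamini-Hochberg adjustment by either coefficient. VIM and KRT10 had the highest r, 0.68 (permutation p = 0.0348, adjusted p = 0.522), with a Spearman rho of 0.82 (permutation p = 0.00600, adjusted p = 0.0900). The r was 0.39 without the 2 lines farthest from the VIM median and 0.08 with quantile normalization. KRT7 and KRT8, both type II chains, had the lowest r, -0.53 (permutation p = 0.112, adjusted p = 0.763), with a rho of -0.33 (permutation p = 0.348, adjusted p = 0.720), and -0.66 without the 2 lines farthest from the KRT7 median. The epidermal partners KRT1 and KRT10 had an r of 0.16 (permutation p = 0.661, adjusted p = 0.763) and a rho of -0.08 (permutation p = 0.840, adjusted p = 0.934), with r = 0.60 without the 2 lines farthest from the KRT10 median.

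Profiles were also set beside those of single genes and beside measures of the whole array. VIM was most like FTL, the ferritin light chain gene (r = 0.97), GAPDH, a glycolytic enzyme gene (0.97), and EEF1A1, a translation elongation factor gene (0.95), out of 5369 genes over 10 lines. These are bright housekeeping genes. With quantile normalization the same r values were 0.16, 0.30 and -0.36, and with median centring they were 0.97, 0.95 and 0.93. As said for harvest state, quantile normalization leaves little room for differences among probe sets this bright. VIM also had a Spearman rho of 0.83 with the ACTB ratio (permutation p = 0.00455, adjusted p = 0.0273 over 12 relations) and a Pearson r of 0.55 (permutation p = 0.0712, adjusted p = 0.307), 0.74 without the 2 lines farthest from the median ratio. With the share of probe sets above the floor VIM had no such relation. There its Pearson r was 0.31 (permutation p = 0.384, adjusted p = 0.512) and its Spearman rho -0.03 (permutation p = 0.945).

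Over the 10 standard lines KRT1 followed the share of probe sets above the floor. Its Pearson r with that share was 0.93 (permutation p = 2.40e-04, adjusted p = 0.00288) and its Spearman rho 0.94 (permutation p = 2.30e-04, adjusted p = 0.00276), with r = 0.89 without the 2 lines farthest from the median share. Of 7333 tested probe sets, 1 had a higher r, and the median r was 0.11. Female line 1 had the lowest share, 52.1%, and the lowest KRT1, while female line 3 (58.8%) and male line 4 (60.9%) had the highest shares and the highest KRT1. The 50% confluence culture, which was not in that comparison, had a share of 57.1% with KRT1 at the floor, beside 56.7% and a KRT1 reading of 162 in the standard culture of male line 1. This relation was looked for after the values had been seen, and its part in the KRT1 differences was not tested.

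**Figure D5:**
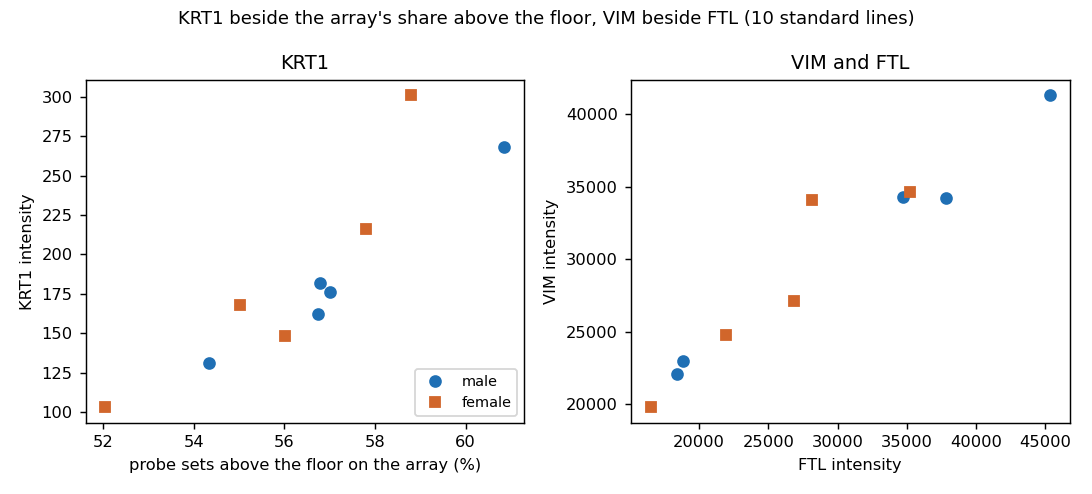
Left, KRT1 intensity against the percentage of probe sets above the floor on the same array. Right, VIM intensity against FTL intensity. Circles are the 5 male and squares the 5 female standard lines, neither axis starts at 0, and in both panels the lines fall along a rising band (r = 0.93 on the left and 0.97 on the right, on log2 intensity).

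The keratins had nearest genes of other kinds. For KRT7 these were USP13, a ubiquitin protease gene (r = 0.92), the Golgi protein gene GOLGB1 (0.90) and ACSL4, a fatty acid activating enzyme gene (0.90), and the r values were 0.92, 0.87 and 0.93 with quantile normalization. For KRT8 they were ENTREP1 (0.90), ASCC2 (0.86) and LRBA (0.86). For KRT10 they were FAF2 (0.90), EMC1 (0.87) and PASK (0.86), all near the floor, at 182 or less in every line. For KRT1 they were the cell cycle regulator gene RB1 (0.94), TMSB4Y (0.93) and the kinesin gene KIF2A (0.92), and for KRT16 SLC17A1 (0.90), RAP1GDS1 (0.89) and PRKAR2A (0.88), of which SLC17A1 sat at the floor in 6 lines and PRKAR2A in 5. TMSB4Y, a Y-linked gene in human, read 186 to 360 in males and 190 to 555 in females, so its probe set did not separate the sexes. With median centring ENTREP1 was 46th from KRT8, at r = 0.79. These r values are descriptions over 10 lines, with no test.

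Other filament genes on the array were read in the same way. Of 12 other type I keratins, 2 were above the floor in all 11 arrays: KRT33A, a hair keratin gene (613 to 988 over the lines), and KRT13, of lining epithelia (203 to 401). Of 7 other type II keratins, KRT4, the partner of KRT13, was above it in all 11 (228 to 583). The probe sets of the basal epidermal pair were mostly at the floor, with KRT5 above it in 3 arrays (187 at most) and KRT14 in 1 (109). Of 7 type III and IV genes, PRPH (230 to 677) and INA (138 to 557), both of neurons, were above it in all 11, while NEFL was at the floor throughout. Among 5 lamin and lens genes, the nuclear lamina genes LMNA (1313 to 5857) and LMNB2 (796 to 4107) were above it in all 11 and LMNB1 in 10.

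In these lists 0 genes had a limma adjusted p under 0.05 by sex, age or sex by age, and 3 of 96 tests (32 genes, 3 contrasts) had an unadjusted p under 0.05. That is 3.13%, near the shares over all tested probe sets of 2.33% by sex, 3.42% by age and 4.84% by sex and age together (the difference in slopes). DSP, a desmosome linker gene, had a sex-by-age estimate of -1.06 ± 0.38 (limma, unadjusted p = 0.0142, adjusted p = 0.973). By sex, 4 of 6 tested type I keratins had negative estimates (median -0.09), as did 1 of 3 type II keratins (median 0.04) and 1 of 4 lamin and lens genes (median 0.29), where the median over all tested probe sets was 0.0032. KRT33B, a hair keratin gene, read 139 to 211 in males and 100 to 133 in females, ranges that did not overlap (as in 0.286% of tested probe sets), with a log2 difference of 0.61 ± 0.20 (limma, unadjusted p = 0.00782, adjusted p = 0.9999). The lens gene BFSP2 had -0.65 ± 0.26 (limma, unadjusted p = 0.0272, adjusted p = 0.9999). Of 17 tested linker and chaperone genes, which tie filaments to junctions, nucleus and other fibres, 12 had negative age slopes (median -0.03), against a median of -0.0031 over all tested.

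By harvest state, KRT4 stood out among the other keratins, with 214 at 50% confluence and 583 in the standard culture, 2.72-fold lower and just under the lowest standard line (228). Differences over 2-fold made up 9.63% of all probe sets compared, and for KRT4 and EMD alike the standard culture of male line 1 was the highest of the 10 lines. All 3 other type II keratins above the floor in both cultures were lower (median log2 difference -0.66), and of 3 other type I keratins 2 were higher (median 0.32). Of those type II keratins, KRT83 read 106 at 50% confluence, near the floor, and KRT2 differed by -0.19. Among keratins at the floor in a single culture, KRT5 (type II) was at least 1.32-fold and KRT32 (type I) at least 1.56-fold higher at 50% confluence. KRT33B (type I) was at least 1.39-fold lower. The 3 lamin and lens genes above the floor in both cultures were lower (median -0.29), LMNA at 2565 against 3885. BFSP2, of the same list, went the other way: it read 262 at 50% confluence and was at the floor in the standard culture, at least 2.62-fold higher. EMD, the gene of a nuclear envelope protein that binds lamins, read 650 at 50% confluence and 1505 in the standard culture, 2.32-fold lower and within the range of the lines (621 to 1505). Of 16 linker and chaperone genes 9 were higher and 7 lower, the chaperone gene HSPB1 reading 17220 at 50% confluence and 9130 in the standard culture. The median over the 6147 probe sets was 0.01. The differences of KRT4 and EMD were -1.44 and -1.16 with quantile normalization, and -1.45 and -1.21 as deposited.

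Markers of cells that use keratins were set beside the members. Of 24 keratinocyte and epithelial genes measured, 6 exceeded the floor in every array. The summed intensity of all 24 ran from 4581 to 5644 in males and 4069 to 5773 in females. Those 6 were SFN (418 to 925), S100A2 (286 to 1086), SPINT1 (288 to 561), SPINT2 (169 to 533), ST14 (180 to 383) and ITGA6 (151 to 1143) over the lines. The epithelial adhesion genes CDH1 and EPCAM were near the floor, at 129 and 101 at most, while the desmosome gene DSP was above it in 9 arrays (326 at most). The part of epithelial cells in the keratin readings was not tested. The epithelial sum was 4498 and 5165 in female lines 2 and 3, the lines of highest KRT7, and 5442 and 4636 in male lines 2 and 5, the lowest. It counts each gene at the floor at the floor value, a constant that makes the sums look more alike. How far epithelial content differed between these lines cannot be read from it. Of 11 genes of mesothelium, a tissue that carries both keratins and vimentin, 1 was above the floor in all 11 arrays. Sums over all 11 genes, those at the floor again counted at it, were 2354 to 5612 in males and 2528 to 5219 in females. MSLN was above the floor in 2 arrays (167 at most). CALB2 read 1927 in male line 5, and the cadherin gene CDH2 and the surface glycoprotein gene PDPN, both also made by other cells, read up to 4070 (female line 3) and 1103 (female line 1). The mesothelial sum was 3076 and 5219 in female lines 2 and 3, the lines of highest KRT7, and 2368 and 5612 in male lines 2 and 5, the lines of lowest. CDH2 read 4070 in female line 3, and in male line 5 it read 2450 beside CALB2 at 1927, so most of both sums came from these genes. The part of mesothelial cells in the KRT7 values was not tested.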

How the data were processed

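Per the labels, total RNA of 11 bonobo fibroblast cultures was measured; the labels name no summarisation, scaling or processing tool, and these steps are therefore not known here. The deposited values are probe set intensities on a linear scale, whole numbers, whose lowest value was 100 in 9 arrays and 90 in 2. All were set to at least 100 and log2 was taken. Of 12625 probe sets, 67 controls were left out, and the 7333 above 100 in at least 5 of 11 arrays were tested in R 4.3.3 with a limma 3.58.1 linear model and moderated variances with a trend on mean intensity (sex and age, and their product in a further fit) over the 10 standard lines, with Benjamini-Hochberg adjustment over all 7333. The number of arrays limits the precision.

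Groups came from the sex and harvest state in the labels, and lines were numbered in accession order, so numbers pair nothing. P-values measure spread between lines with 1 culture each. Symbols came from the array's 2016 annotation, and 8 of 9 members were found in the bonobo gene table. For likeness and lists, a gene with several probe sets was read by that of highest mean log2 value. Permutation tests used 100000 resamples, two-sided (scipy 1.17.1). Named genes were all members, the 3 genes of highest Pearson r with each, and genes of filament and marker lists past a threshold or of high reading or change. Members and lists were chosen with earlier results of these data known. The limma fits were tested on simulated data. Sequences were not used here.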

Additional observations from a re-analysis of the deposited data

Results flagged for a closer look

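In 2 of 16 groups of 5 lines with any spread, 1 line stood apart from the other 4. KRT18 read 108 in female line 5 and 100 in the other female lines. The second KRT16 probe set read 188 in male line 2 and at most 100 in the other male lines. Both are single readings above the floor beside lines that are all at it, so the distance of those lines below the reading is unknown. In such groups any reading above the floor is flagged, so the rule's chance rate of about 1 in 20 does not apply.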

How the results depend on the processing

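The counts of filament probe sets past the threshold by sex, age and sex by age, of pairs passing, and of those over 2-fold by harvest state were 0 as reported and 0 under each alternative run, the omission of single lines included. The estimates that changed sign had not passed the test. By sex, KRT10 gave -0.046 with median centring, -0.16 with array weights and -0.14 with age in 2 classes, and -0.14 to 0.17 without single lines; KRT1 gave -0.033 with quantile normalization, -0.031 with median centring and -0.077 with array weights, and -0.17 to 0.24 without single lines. By age, VIM gave -0.0011 with quantile normalization, and KRT1 gave 0.090 with age in 2 classes and -0.13 to 0.11 without single lines. For sex by age, VIM gave -0.085 with quantile normalization, and KRT16 gave -0.0023 with a pseudocount of 50 and -0.25 with array weights. Without single lines these interaction estimates ran from -0.26 to 0.37 for KRT16, -0.12 to 0.49 for KRT1 and -0.0075 to 0.38 for KRT10. The cause was not tested. No paired analysis was possible because the labels give no replicate numbers. Readings at the floor carry only a bound, which limits KRT1, KRT16, KRT18, KRT19 and DES.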
